A study of Mus musculus with 30 samples.

Results

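Oxidative phosphorylation subunits were followed as one group of genes in mouse aortic smooth muscle cells after knockdown or overexpression of the long noncoding RNA CASC15 and after treatment with angiotensin II or PDGF-BB. The members are the genes whose symbol carries the usual prefix of a subunit of complexes I to V (mt-Nd, mt-Co, mt-Cytb and mt-Atp for the mitochondrial genome, and Nduf, Sdh, Uqcr, Cox5 to Cox8 and Atp5 for the nuclear genome). This symbol pattern found 95 of the 78334 gene identifiers in the table, 82 nuclear and 13 mitochondrially encoded. Complex I had 43 members, complex II 4, complex III 9, complex IV 19 and complex V 20. The choice used no measured value.

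Oxidative phosphorylation is the last stage of respiration. Complexes I to IV in the inner mitochondrial membrane pass electrons from NADH and succinate to oxygen. Complexes I, III and IV pump protons, and complex V, the ATP synthase, lets the protons flow back to make ATP. Complex II is wholly encoded in the nucleus, whereas the other complexes are assembled from proteins of both genomes, so a balanced supply of nuclear and mitochondrial transcripts is needed for their assembly. Vascular smooth muscle cells shift between a contractile and a growing state, and their energy metabolism is known to change with that shift.

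The 30 RNA-seq libraries came from cells kept in medium without serum for 48 h and transfected at least 24 h before collection, and the names of the libraries place them in 2 sequencing runs. Run 2 held untreated cells in 4 groups, which were a control GapmeR antisense oligonucleotide (n = 2), knockdown of total CASC15 (n = 2), an overexpression control (n = 3) and overexpression of total CASC15 (n = 3). Run 3 held 5 groups of 4, which were the knockdown control left untreated, given angiotensin II (10 ng/ml) or given PDGF-BB (10 to 30 ng/ml), and knockdown of long CASC15 without or with angiotensin II at the same dose, each agent acting for 24 h. Angiotensin II is a vasoconstrictor peptide and PDGF-BB a growth factor that drives smooth muscle cells to divide. Replicates carried the labels P16 to P19 as batches, and a batch occurs at most once in a group. Strain, sex and age are not given in the sources used here, nor whether batches were separate animals, so the p-values measure the spread between these batches. The growth protocol speaks of mouse and rat cells, and the libraries are labelled as mouse. All groups share the transfection and the serum-free culture, and no untransfected cells were analysed here.

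Total counts per library were between 18007199 and 21881959 in run 2 and between 15771490 and 30362047 in run 3. The transcript read here as mouse CASC15 (2610307P16Rik) had 604 to 916 CPM (each library's counts scaled to a common total) after overexpression against 4.03 to 8.69 in the plasmid controls, and 2.15 to 3.89 after long knockdown against 4.69 to 6.13 in the run 3 controls without PDGF-BB. With PDGF-BB it had 2.95 to 4.82 CPM. The libraries labelled total CASC15 knockdown had 9.73 and 8.29 CPM against 7.66 and 6.37 in their controls, so this transcript was not lower there. All 8 smooth muscle markers searched were detected, with a summed level of 196 to 336 CPM in run 3. The 6 endothelial markers summed to 0.356 to 4.16 CPM there, the 6 macrophage and leukocyte markers to 10.1 to 16.5 CPM, and the 5 fibroblast markers to 607 to 2253 CPM.

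Several mitochondrial genes cannot be read from their own rows alone, because the nuclear genome holds near-identical copies that took most of their counts. The copies that took them lie on chromosome 1 of GRCm38 and are annotated as pseudogenes. Chromosome 2 holds a further copy each of mt-Co1 (Gm13340) and mt-Co2 (Gm13341), with means of 3.93 and 1.90 counts per library. The sequences below, from GENCODE M21 transcripts in the gene's 5′ to 3′ direction, are shown because a 75-base stretch without a difference is the same in gene and copy. The first pair is the start of mt-Co2, a core subunit of complex IV, and of Gm28661, whose 80 bases are the same letter for letter:
mt-Co2: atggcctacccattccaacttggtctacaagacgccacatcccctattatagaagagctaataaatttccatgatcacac
Gm28661: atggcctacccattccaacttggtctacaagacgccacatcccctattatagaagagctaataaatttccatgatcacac
The second pair is the start of mt-Nd3, a membrane subunit of complex I, and of Gm28438, which differ in these 120 bases by T3C, counted from the first base of mt-Nd3 and set in capitals:
mt-Nd3: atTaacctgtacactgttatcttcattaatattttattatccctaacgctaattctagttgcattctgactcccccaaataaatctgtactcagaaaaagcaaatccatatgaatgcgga
Gm28438: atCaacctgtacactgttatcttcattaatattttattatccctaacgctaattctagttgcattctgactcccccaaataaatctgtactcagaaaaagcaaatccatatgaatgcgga
Over their shared length the copies of mt-Co2 (681 bases), mt-Atp6 (678), mt-Co3 (783) and mt-Nd4l (294) were identical to the gene, and that of mt-Nd3 matched at 344 of 345 bases.

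Gm28661 held a median of 96.8% of the counts of the pair with mt-Co2 in run 3 and 78.4% in run 2. The copy of mt-Atp6, which encodes the proton channel subunit of ATP synthase, held 80.9% in run 3, and that of mt-Co3 held 80.1%. For mt-Nd3 the copy held 81.4% in run 3 but 5.42% in run 2. The longer mt-Co1 and mt-Nd4 kept nearly all of their counts, with copies at 0.188% and 0.277% in run 3. With the copies added, the run 3 median of mt-Co2 was 4703 CPM, of mt-Co3 4188 CPM and of mt-Atp6 3413 CPM. The nuclear member Ndufb4 had a mean of 202 counts per library and its processed copy Ndufb4c 289. This copy shared 17.2% of the 75-base stretches of its gene, against 99.5% for Gm28661 and mt-Co2. Whether Ndufb4c took counts from Ndufb4 was not tested. Values of these genes are their own rows unless the copies are said to be added.

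**Figure D1:**
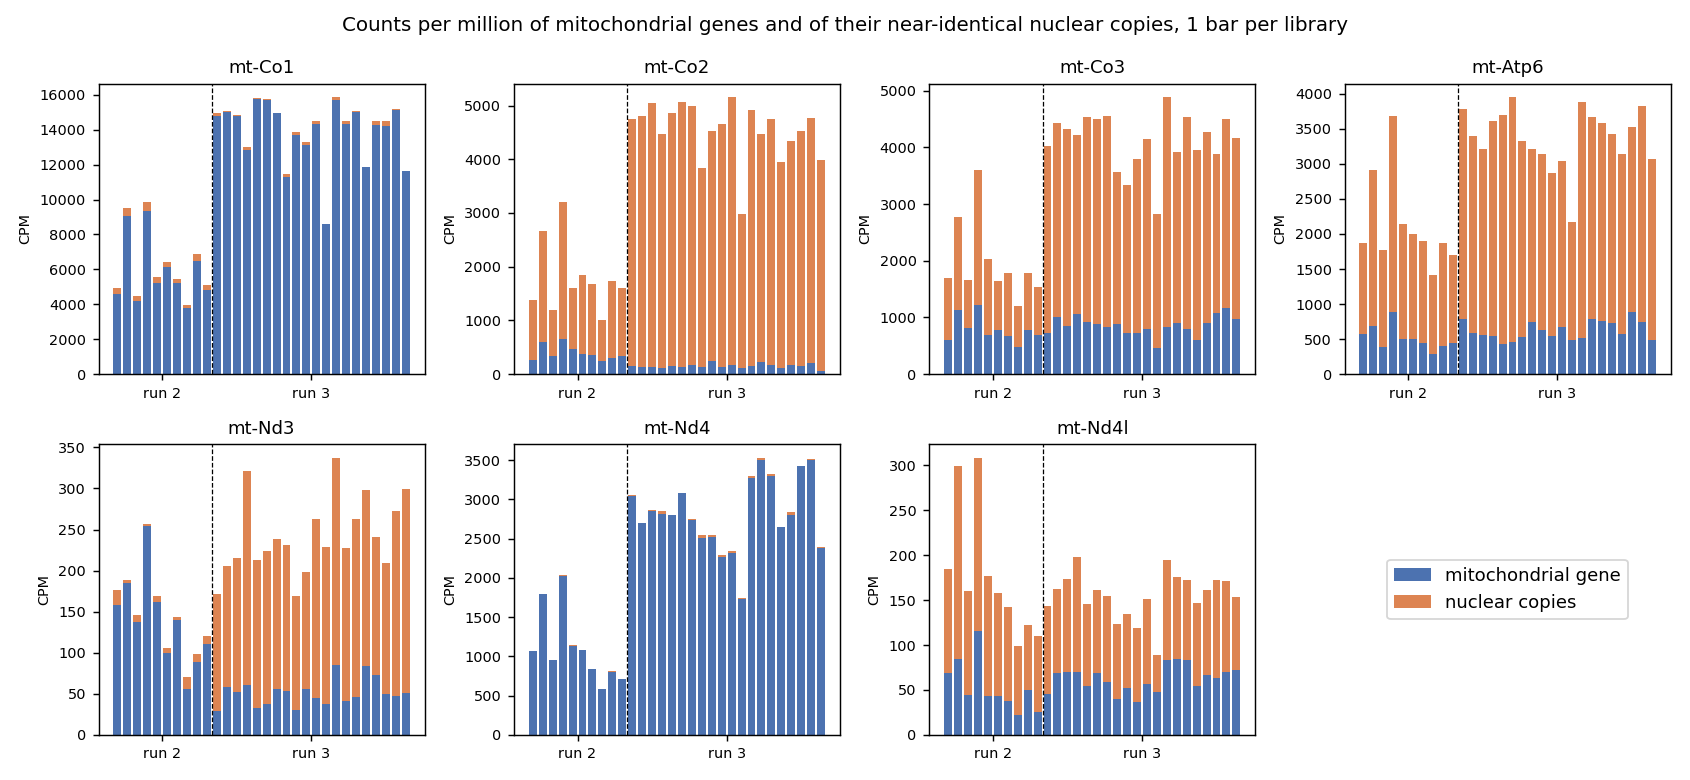
CPM of 7 mitochondrial genes (blue) with their near-identical nuclear copies stacked on top (orange), 1 bar per library, run 2 left and run 3 right of the dashed line. The copies make up most of every bar for mt-Co2, mt-Co3 and mt-Atp6, most of the bar for mt-Nd4l except in 1 PDGF-BB library (46.0%), and little of it for mt-Co1 and mt-Nd4.

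Of the 95 members, 88 had enough counts to be tested in each run, 75 nuclear and all 13 mitochondrially encoded. The 7 without enough counts were a second Atp5o identifier and the complex IV genes Cox6a2, Cox6c2, Cox7a1, Cox7b2, Cox8b and Cox8c. These are mostly heart, skeletal muscle or testis forms, and the ubiquitous counterparts were detected. In untreated run 3 controls Cox6a1 had 71.7, 61.5, 63.4 and 77.8 CPM (here and after, in the order P16 to P19) and Cox8a had 61.6, 70.1, 61.5 and 73.5 CPM, while Cox6a2 stayed at or below 0.468 CPM and Cox7a1 at or below 0.25 CPM in every library of the series. Cox8c had no counts in any library, and Cox8b was at 0 in all but 1 library, where it had 0.17 CPM. Cox6b2, a testis form of the subunit that holds the complex IV dimer together, was detected at 0.223 to 1.52 CPM in run 3 beside Cox6b1 at 35.2 to 57 CPM. Among the 3 genes of the ATP synthase c-ring, which encode the same mature protein, the untreated controls of run 3 had 38.4 to 49.8 CPM of Atp5g1, 77.1 to 111 of Atp5g2 and 77.7 to 87.3 of Atp5g3.

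Compared per length, as CPM per kilobase of the median coding transcript, the nuclear members of run 3 had a median of 63.4 (1.95 to 424) and the mitochondrially encoded ones 1089 (147 to 8986). With the copies added the latter had a median of 2049 (505 to 9019). Atp5b, the catalytic beta subunit of ATP synthase, was the highest nuclear member at 424, followed by Atp5a1, its alpha partner, at 324. Nuclear subunits of complex I were lowest as a group (median 44.4), then complexes II (64.9), III (69.9), IV (88.1) and V (96.6). mt-Co1, the catalytic core of complex IV, was highest of all, with and without its copies. The runs differed: the antisense controls of run 3 had a median of 1.79 times the run 2 level for mitochondrially encoded members (1.96 with the copies added) and 0.815 times for nuclear members. mt-Nd6, the only protein gene on the light strand of the mitochondrial genome, had 7.29 to 30.0 CPM in run 2 and 177 to 303 CPM in run 3. Levels are therefore compared only within a run.

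The 13 mitochondrially encoded genes took 0.732% to 2.10% of all counts in run 2 and 1.66% to 3.23% in run 3. Batch P19 was low in every run 3 group, at 1.66% to 2.57% against 2.49% to 3.23% in P16 to P18. With the copies added, the share was 3.92% ± 0.203 (SD, n = 4) in untreated controls, 3.90% ± 0.485 with angiotensin II, 3.28% ± 0.646 with PDGF-BB, 4.13% ± 0.417 after long knockdown and 3.98% ± 0.421 after long knockdown with angiotensin II. The nuclear members took 0.552% ± 0.0236 in untreated controls and 0.626% ± 0.0344 with PDGF-BB. Within batches P16 to P19 the PDGF-BB library had a nuclear share higher by 0.0882, 0.0476, 0.0715 and 0.0885 percentage points, and a mitochondrial share with copies that differed by -0.45, -0.526, -0.305 and -1.29 points. The 2 shares thus moved in opposite directions in 4 of 4 batches, and the last batch accounted for the widest mitochondrial gap. The mean log2 CPM of the 13 genes without copies, which weights each gene equally where the share is led by mt-Co1, differed by 0.01, -0.17, -0.05 and -0.53, so that it was lower in 3 of 4 batches and not in P16. No test was run on shares.

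**Figure D2:**
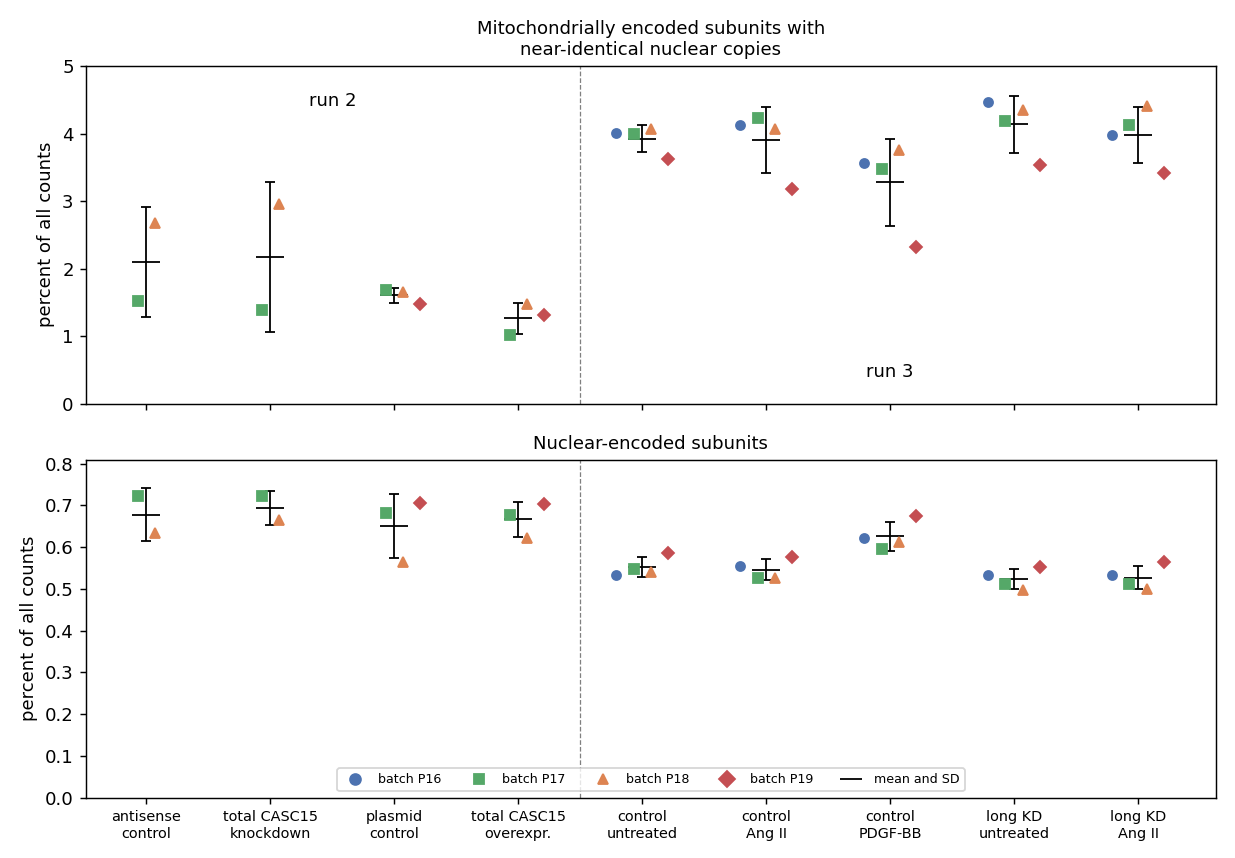
Percent of all counts in mitochondrially encoded subunits with their nuclear copies (top) and in nuclear-encoded subunits (bottom) for each library, coloured by batch, with the mean and SD of each of the 9 groups. The PDGF-BB group has the lowest mean of the run 3 groups in the top panel (3.28%) and the highest in the bottom panel (0.626%).

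With PDGF-BB, 29 of the 75 nuclear members tested rose and 2 fell, and each of the 5 complexes held some that rose (edgeR quasi-likelihood test, adjusted p under 0.05 over all genes, n = 4 each). The median log2 fold change of these 75 was 0.21, with 65 above 0, and the changes of those that rose lay between 0.18 and 0.69. PDGF-BB changed much of the transcriptome: 43.6% of the 15103 genes tested were called, 23.6% higher and 20.0% lower, with a median log2 fold change of -0.02. The members' 37.5% (33 of 88) is therefore near the share of all genes, whereas among the called nuclear members the direction was mostly up. With the batch as a replicate block, 53 members were called, 45 nuclear higher and 3 lower and 5 mitochondrially encoded lower, against 54.5% of all genes (28.3% higher and 26.2% lower). Groups did not overlap for 27 members, against 40.7% of all genes. Proliferation markers moved with the comparison, since 6 of them summed to 1556 to 1630 CPM with PDGF-BB and 97.6 to 218 in untreated controls. The summed fibroblast markers were at 607 to 836 CPM with PDGF-BB against 1504 to 1733, and the smooth muscle markers at 196 to 219 against 241 to 276. The 6 striated muscle markers summed to 60.8 to 64.9 CPM with PDGF-BB against 16.7 to 24.1, nearly all of it Tnnt2 (means of 62.1 and 18.7 CPM), with Myh6 at 0 in both groups. The endothelial markers were at 0.356 to 1.05 CPM against 1.25 to 2.65, and the leukocyte markers overlapped. Their part in the results on subunits was not tested. In bulk RNA, fewer cells of a type and less RNA per cell cannot be told apart.

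In complex I, 9 of 36 nuclear subunits rose and 1 fell under PDGF-BB, with a median log2 fold change of 0.17, a share that rose close to the 23.6% of all genes. Ndufs8, a core subunit that carries iron-sulfur clusters on the path to ubiquinone, had 27.0, 24.0, 24.8 and 31.6 CPM in untreated controls and 37.6, 38.7, 37.4 and 46.5 CPM with PDGF-BB. The groups did not overlap, and the rise was 0.57 ± 0.101 (SE) in log2, at an adjusted p of 0.000118. Ndufb8, an accessory subunit of the membrane arm, went from 39.9, 45.3, 47.3 and 49.3 CPM to 56.2, 63.3, 64.5 and 72.6 CPM (log2 0.50 ± 0.083 SE, adjusted p = 6.75e-05), again without overlap. Core subunits Ndufs1 and Ndufv1, which receive the electrons of NADH, rose by 0.36 and 0.31 on the log2 scale. Of the 7 nuclear core subunits 3 rose, and of the 29 accessory subunits 6 rose and 1 fell, a share that rose below that of all genes. With the replicate block 16 of the 36 rose and 1 fell, against 28.3% of all genes higher.

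The accessory subunit that fell was Ndufa6, which sits beside the ubiquinone site. It had 57.4, 57.8, 50.8 and 60.3 CPM in untreated controls and 39.7, 37.6, 34.7 and 39.4 CPM with PDGF-BB, so that every treated library was below every control. Its log2 change of -0.58 ± 0.0865 (SE, adjusted p = 1.93e-05) was the furthest from 0 of any fall among the members.

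In complex II, which links the tricarboxylic acid cycle to the respiratory chain as succinate dehydrogenase, 2 of 4 members were called, Sdhb and Sdhd. Of all genes 43.6% were called. Sdhb, the iron-sulfur subunit, had 25.5, 25.1, 24.3 and 29.7 CPM in controls and 33.9, 29.3, 31.2 and 40.5 CPM with PDGF-BB (log2 0.37 ± 0.112 SE, adjusted p = 0.0120). The control of P19 overlapped the treated range, while PDGF-BB was higher in each of the 4 batches. Sdhd, a membrane anchor, went from 55.3, 51.8, 48.1 and 58.9 CPM to 71.3, 69.2, 66.3 and 70.4 CPM with no overlap (log2 0.37 ± 0.0904 SE, adjusted p = 0.00238). The flavoprotein Sdha (means 296 and 322 CPM) and the second anchor Sdhc (71.8 and 78.5 CPM) were also higher in every PDGF-BB library than in any control, with log2 fold changes of 0.12 and 0.13, but were not called (adjusted p = 0.0533 and 0.105). Both were called with the replicate block (adjusted p = 0.0182 and 0.0342), where 54.5% of all genes were called.

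Without the replicate block, complex III had the highest share of called nuclear subunits, 6 of 8, with 5 higher and 1 lower. Of all genes 43.6% were called. With the block its counts were the same, against 54.5% of all genes, but complexes II and V had higher shares. Uqcrq, a small subunit bound to cytochrome b, rose from 25.4, 28.5, 32.6 and 38.3 CPM to 44.3, 43.0, 49.2 and 59.1 CPM (log2 0.65 ± 0.158 SE, adjusted p = 0.00265). Uqcr11, Uqcrb, Uqcr10 and the core protein Uqcrc1 rose by 0.40, 0.40, 0.33 and 0.28 on the log2 scale. Uqcrh, the hinge protein at the cytochrome c1 docking site, fell instead, from 65.2, 71.6, 64.3 and 74.7 CPM to 53.8, 53.0, 59.1 and 57.4 CPM (log2 -0.30 ± 0.0653 SE, adjusted p = 0.0008). Neither gene's groups overlapped.

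In complex IV, 4 of 10 nuclear subunits rose and none fell (7 with the replicate block), against 23.6% of all genes higher (28.3% with the block). Cox6a1, which helps hold the dimer, went from 71.7, 61.5, 63.4 and 77.8 CPM to 119, 89.9, 87.2 and 108 CPM (log2 0.56 ± 0.152 SE, adjusted p = 0.00605), without overlap. Cox8a and Cox7a2, the ubiquitous forms of 2 small membrane subunits, rose by 0.45 and 0.32 on the log2 scale. Cox5a, a matrix-facing subunit, had an adjusted p of 0.0491 with overlapping groups, and its call was lost under 11 of 17 alternatives. Ndufa4, counted here by its symbol with complex I but known as a complex IV subunit, rose by 0.41 and lost its call under 10 of 17.

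In complex V, 9 of 17 nuclear subunits rose and none fell, against 23.6% of all genes higher and 20.0% lower. With the replicate block 13 rose and 1 fell, against 28.3% of all genes higher and 26.2% lower. Of the 3 c-ring genes, Atp5g1 and Atp5g3 were called. Atp5g1 had 38.4, 48.9, 49.8 and 48.3 CPM in controls and 60.7, 74.6, 79.9 and 83.0 CPM with PDGF-BB, a log2 change of 0.69 ± 0.122 (SE, adjusted p = 0.000132), the largest rise of any member. Atp5g3 went from 87.3, 77.7, 80.3 and 83.3 CPM to 116, 107, 107 and 125 CPM (log2 0.47, adjusted p = 6.06e-05). Atp5g2 had 77.1, 94.6, 96.2 and 111 CPM in controls and 103, 104, 129 and 114 CPM with PDGF-BB, overlapping groups that were not called (log2 0.25, adjusted p = 0.0626, or 0.0487 with the replicate block). The differences between the 3 genes were not themselves tested. Atp5b rose from 787, 808, 785 and 899 CPM to 1104, 1051, 1100 and 1348 CPM (log2 0.49 ± 0.0989 SE, adjusted p = 0.00047), without overlap. Atpif1, the inhibitor protein of the ATP synthase, was counted outside the members; its log2 fold change was 0.07 (adjusted p = 0.699).

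**Figure D3:**
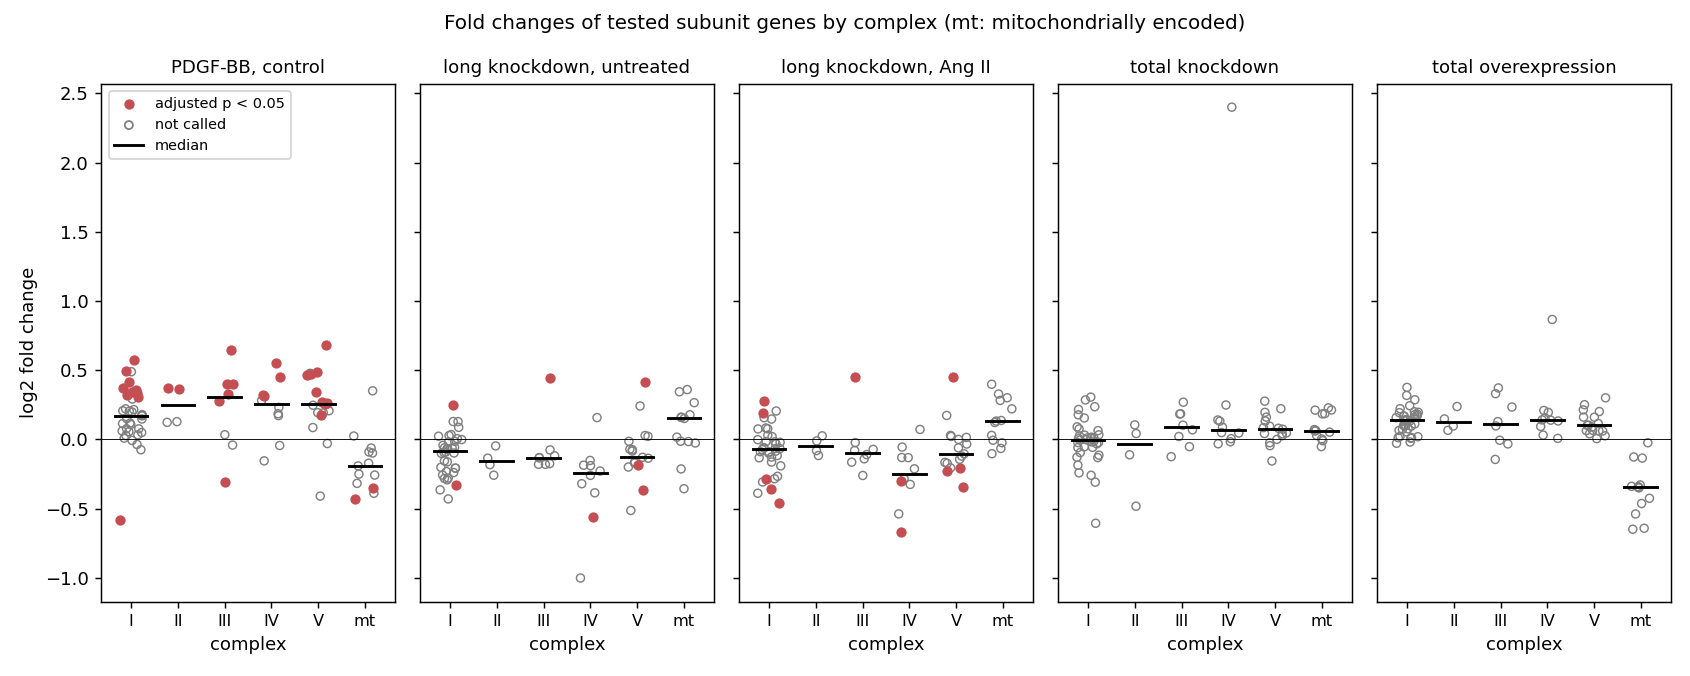
Log2 fold change of each tested member in 5 comparisons, by complex for the 75 nuclear genes and together (mt) for the 13 mitochondrially encoded genes. Filled points passed the adjusted p threshold and black lines are medians, which under PDGF-BB lie above 0 in each nuclear complex (0.17 to 0.30) and below 0 for mt (-0.19).

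Of the 13 mitochondrially encoded members 2 were called under PDGF-BB (15.4%), both lower, where 20.0% of all genes were called lower. In all, 11 had a log2 fold change below 0, with a median of -0.19. mt-Nd4, a proton-pumping subunit of complex I, had 3040, 2700, 2850 and 2808 CPM in controls and 2549, 2293, 2342 and 1735 CPM with PDGF-BB (log2 -0.35 ± 0.121 SE, adjusted p = 0.0230). The groups did not overlap, and P19 was the lowest. mt-Co3, a core subunit of complex IV, had 720, 1007, 846 and 1062 CPM in controls and 720, 724, 794 and 460 CPM with PDGF-BB (adjusted p = 0.0284), overlapping groups; with its copy added the log2 fold change was -0.27 (adjusted p = 0.0424). Both calls were lost when the PDGF-BB library of P19 was left out. mt-Nd1, which lines the ubiquinone channel of complex I, had 2157, 2098, 2167 and 2161 CPM in controls and 2239, 2254, 2488 and 1753 CPM with PDGF-BB, a log2 fold change of 0.03. mt-Cytb, the only complex III subunit from the mitochondrial genome, had a log2 fold change of -0.06. mt-Co1 was lower in 4 of 4 batches, from 14776, 15037, 14804 and 12812 CPM to 13889, 13306, 14511 and 8598 CPM, and was called only with the replicate block (adjusted p = 0.00618), as were mt-Nd5 (0.00749) and mt-Nd6 (0.0129). With the copies added, 4 of the 13 were called lower (mt-Nd4, mt-Nd4l, mt-Co3 and mt-Atp6) against 21.2% of all genes, 12 were below 0 and the median was -0.22.

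Knockdown of long CASC15 shifted few single subunits in either medium. In untreated cells 7 of 88 members were called (7.95%), 3 higher and 4 lower, against 25.0% of all genes tested, 12.3% higher and 12.8% lower. With angiotensin II in both arms 12 were called (13.6%), 4 higher and 8 lower, against 26.7% of all genes, 13.4% higher and 13.3% lower. All called members were nuclear. The nuclear median log2 fold change was -0.13 in untreated cells, with 61 of 75 below 0, and -0.08 with angiotensin II, with 56 of 75 below 0; the median over all genes was 0.02 and 0.01. Complex IV had the lowest nuclear medians, -0.24 and -0.25. The batch mattered here: with the replicate block 28 members were called in untreated cells (23 nuclear lower, 4 nuclear higher and mt-Cytb higher) against 40.6% of all genes (20.0% higher and 20.6% lower), and 22 with angiotensin II (18 lower and 4 higher) against 41.3% (20.4% higher and 20.9% lower). Without batch P19, 24 and 22 members were called, against 40.0% and 39.9% of all genes. Proliferation markers were also lower, at 30.7 to 137 CPM and 27.9 to 124 CPM in the knockdown groups against 97.6 to 218 and 112 to 253 CPM in their controls. With angiotensin II the endothelial markers were at 2.24 to 4.16 CPM after knockdown against 0.863 to 2.22, and in untreated cells at 1.91 to 3.78 against 1.25 to 2.65. The striated muscle markers were at 6.14 to 21.97 CPM against 16.7 to 24.1 in untreated cells (medians 10.6 and 18.1) and at 7.69 to 25.7 against 17.3 to 28.3 with angiotensin II (9.56 and 21.4). The fibroblast markers were at 1711 to 2204 CPM against 1504 to 1733, and at 1694 to 2253 against 1571 to 1846. The part of these markers was not tested.

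Cox5a was the complex IV subunit that fell in both media. It had 42.2, 37.0, 36.9 and 49.9 CPM in untreated controls and 27.1, 26, 23.1 and 36.5 CPM after knockdown (log2 -0.56 ± 0.129 SE, adjusted p = 0.0031). With angiotensin II it had 42.7, 37.0, 38.7 and 45.4 CPM in controls and 24.6, 24.6, 26.7 and 27.4 CPM after knockdown (log2 -0.66 ± 0.13 SE, adjusted p = 0.000782). Neither pair of groups overlapped, and both calls held under all 17 alternatives. Cox6a1 was lower in 4 of 4 batches in both media (log2 -0.39 and -0.28) and was called only with the replicate block (adjusted p = 0.00022 and 0.0048).

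Atp5b and Ndufs1 were also lower in both media. Atp5b had 606, 594, 599 and 751 CPM after knockdown in untreated cells against 787, 808, 785 and 899 CPM in controls (log2 -0.36 ± 0.0989 SE, adjusted p = 0.0101). P19 was the highest library in both groups, and the groups did not overlap. In the angiotensin II arm the groups overlapped, and the change was -0.34 (adjusted p = 0.0142). Ndufs1 had 65.0, 66.8, 62.7 and 63.8 CPM against 83.5, 77.1, 77.2 and 86.9 CPM in untreated cells (log2 -0.33, adjusted p = 0.00295) and fell by 0.28 with angiotensin II (adjusted p = 0.00893). Atp5c1, the rotating gamma subunit of ATP synthase, fell by 0.18 and 0.21 on the log2 scale (adjusted p = 0.042 and 0.0219), and these calls were lost under 8 and 6 of 17 alternatives.

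Uqcrh, Atp5g2 and Ndufa6 were higher after long knockdown in both media. Uqcrh had 99.1, 96.2, 94.4 and 85.0 CPM after knockdown against 65.2, 71.6, 64.3 and 74.7 CPM in untreated controls (log2 0.44 ± 0.0649 SE, adjusted p = 4.51e-05) and changed by 0.45 with angiotensin II (adjusted p = 3.86e-05). No knockdown library overlapped its controls. Atp5g2 had 140, 108, 125 and 133 CPM against 77.1, 94.6, 96.2 and 111 CPM in untreated cells, overlapping groups (log2 0.42 ± 0.105 SE, adjusted p = 0.00579). With angiotensin II it had 144, 123, 119 and 141 CPM against 105, 86.6, 102 and 91.9 CPM, without overlap (log2 0.45, adjusted p = 0.00321). Ndufa6 had 75.3, 73.4, 59.0 and 61.0 CPM against 57.4, 57.8, 50.8 and 60.3 CPM in untreated cells (log2 0.25, adjusted p = 0.038), and rose by 0.28 with angiotensin II (adjusted p = 0.0217). The calls for Uqcrh and Atp5g2 held under all 17 alternatives in both media, whereas that for Ndufa6 was lost under 7 in untreated cells and 3 with angiotensin II.

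Called with angiotensin II alone were Ndufa4 (log2 -0.46), Ndufc2 (-0.36), Cox6b1 (-0.30), Atp5g3 (-0.23) and Ndufv1 (0.19). These calls were lost under 7 of 17 alternatives for Ndufa4, under 5 for Ndufc2 and under 6 for each of the other three. Their differences between the 2 media were covered by the interaction test below, which called none. The mitochondrially encoded members had medians of 0.15 in untreated cells and 0.13 with angiotensin II, and with the copies added the medians were 0.02 and 0.03. Complex II had no called member in either medium, although Sdhb, Sdhc and Sdhd were lower in 4 of 4 batches of untreated cells (log2 -0.26, -0.14 and -0.18) and were called with the replicate block (adjusted p = 0.00663, 0.0337 and 0.0211).

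**Figure D4:**
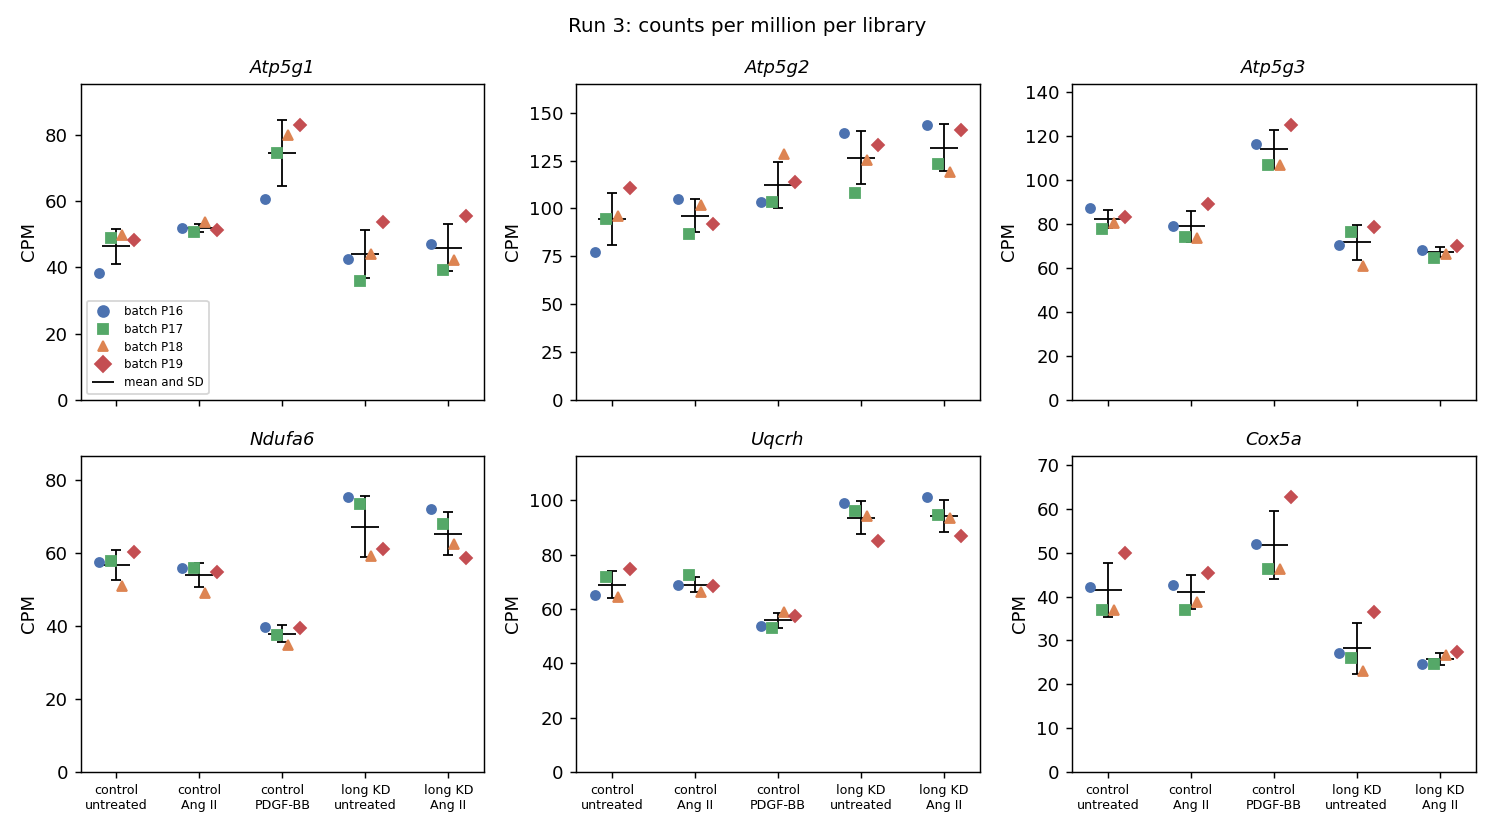
CPM in each run 3 library for the 3 c-ring genes of ATP synthase and for Ndufa6, Uqcrh and Cox5a, with batch as colour and the mean and SD of each group of 4. Atp5g1 is highest with PDGF-BB (60.7 to 83.0 CPM), Atp5g2 and Uqcrh are highest in the long knockdown groups, Ndufa6 and Uqcrh are lowest with PDGF-BB, and Cox5a is lowest after long knockdown.

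The comparison of PDGF-BB with untreated controls and that of long knockdown with control under angiotensin II share no library. Of the 31 nuclear members called in the first and the 12 called in the second, 8 were called in both, 25.8% of the first list and 66.7% of the second. Over all 15103 genes 2163 were called in both, 32.8% of the first list and 53.6% of the second, and 68.2% of these went in opposite directions. Of the 8 members, 7 (87.5%) did: Atp5b, Atp5g3, Cox5a, Ndufa4 and Ndufs1 were higher with PDGF-BB and lower after knockdown, and Ndufa6 and Uqcrh were lower with PDGF-BB and higher after knockdown. Ndufv1 was higher in both. The call of Ndufs1 and that of Uqcrh held under all 17 alternatives in both comparisons. Under PDGF-BB Cox5a and Ndufa4 lost theirs under 11 and 10, and after knockdown Ndufa4 lost its call under 7, Atp5g3 and Ndufv1 under 6, and Atp5b and Ndufa6 under 3. The 9 alternatives applied to both comparisons alike gave 4 (no filter) to 18 (replicate block) members called in both, of which 4 to 16 were opposite. With the replicate block 4055 of all genes were called in both, 71.0% of them opposite. Angiotensin II was present in both arms of the second comparison and in neither arm of the first. The 2 comparisons come from the same 4 batches.

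**Figure D5:**
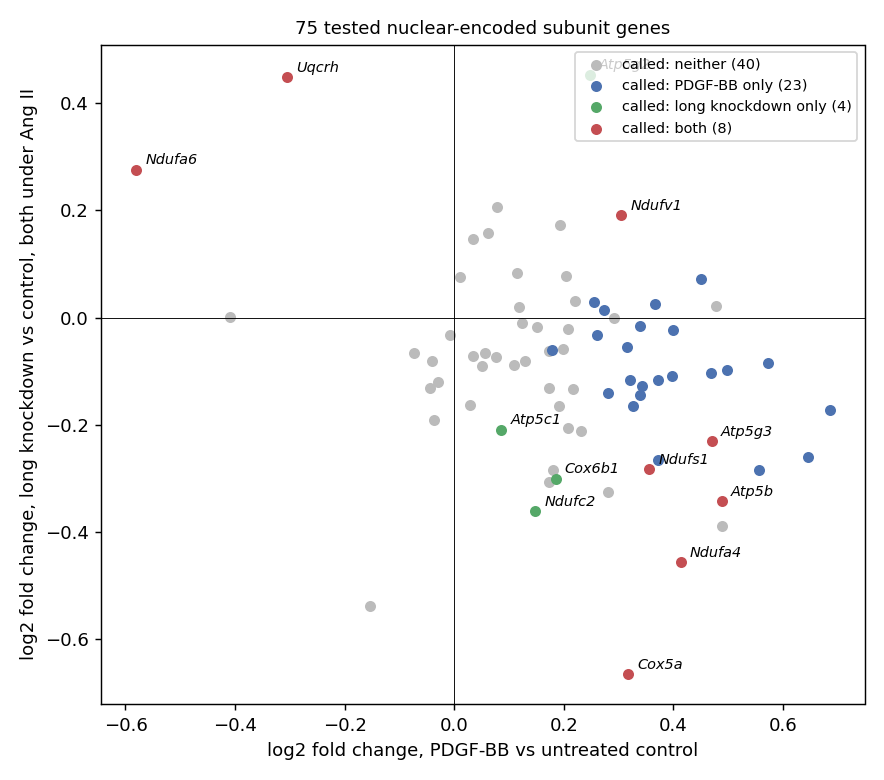
Log2 fold change of 75 nuclear members with PDGF-BB (x axis) against long CASC15 knockdown under angiotensin II (y axis), coloured by the comparisons in which a gene was called. The 8 genes called in both are red, and 7 of them lie at the upper left or lower right, where the directions are opposite.

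No member passed the test for angiotensin II. None of 88 was called in controls or after long knockdown, and none in the interaction of knockdown with angiotensin II, and no gene of 15103 was called by edgeR in any of the 3 (0.0%). At an unadjusted p under 0.05 there was 1 member in each, and 156, 174 and 166 genes over all. DESeq2 called no member, and 1, 0 and 1 genes over all (0.00662%, 0.0% and 0.00662%). Atp5g1 had 51.8, 50.7, 53.6 and 51.3 CPM with angiotensin II and 38.4, 48.9, 49.8 and 48.3 CPM without, and Cox5a had 42.7, 37.0, 38.7 and 45.4 CPM against 42.2, 37.0, 36.9 and 49.9 CPM.

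Overexpression of total CASC15 gave no called member (0 of 88) where 1.65% of 15350 genes were called. At an unadjusted p under 0.05 there was 1 member, Atp5g1, and 2295 genes, and DESeq2 called 0 members and 5.26% of all genes. The nuclear median log2 fold change was 0.13, with 70 of 75 above 0 (-0.000389 when the plasmid control of P18 was left out), and the mitochondrially encoded median -0.35, with 13 of 13 below 0 (-0.34 with the copies added). Atp5g1 had 47.6, 39.6 and 51.6 CPM in plasmid controls and 52.4, 58.4 and 60.2 CPM after overexpression (batches P17 to P19), without overlap. Uqcrq had 50.2, 39.3 and 74.3 CPM against 57.8, 62.8 and 85.3 CPM, higher in 3 of 3 batches. With the replicate block both were called (log2 0.31 and 0.36, adjusted p = 0.0398 and 0.0261), where 9.4% of all genes were called higher. mt-Cytb had 1223, 1026 and 1019 CPM in plasmid controls and 568, 699 and 830 CPM after overexpression, groups that did not overlap (log2 -0.64 ± 0.293 SE, adjusted p = 0.349). The mitochondrial share with copies was 1.61% ± 0.112 in plasmid controls and 1.27% ± 0.229 after overexpression (SD, n = 3), lower in 3 of 3 batches with differences of -0.666, -0.179 and -0.164 points. The proliferation markers summed to 53.4 to 304 CPM in the controls and 104 to 450 CPM after overexpression. The macrophage and leukocyte markers were at 18.1 to 23.4 CPM after overexpression and 11.4 to 12.6 in the controls, without overlap. The part of these markers was not tested.

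In the libraries labelled total CASC15 knockdown, 0 of 88 members were called against 2.07% of all genes. There were 2 members at an unadjusted p under 0.05 (1975 genes over all), and 0 by DESeq2, which called 4.68% of all genes. These 2 were Cox6b2, with 0.446 and 0.247 CPM in controls and 1.81 and 1.93 CPM in the libraries labelled knockdown, and Sdhb, with a log2 fold change of -0.48. Both were called with the replicate block (adjusted p = 0.0126 and 0.0129), as was Ndufb8 (log2 -0.30, adjusted p = 0.0378), against 14.4% of all genes. The nuclear and mitochondrially encoded medians were 0.03 and 0.06. Their sign was not stable: the nuclear median was -0.081 without the P18 control and -0.031 without the P17 library labelled knockdown, and the mitochondrially encoded one -0.21 without the P17 control and -0.58 without the P18 library labelled knockdown. Proliferation markers summed to 72.4 to 134 CPM in the libraries labelled knockdown against 26.9 to 41.2 in the controls. The macrophage and leukocyte markers were at 27.7 to 32.3 CPM against 8.64 to 10.3, the endothelial markers at 6.02 to 9.99 against 2.81 to 3.90, and the striated muscle markers at 13.3 to 15.8 against 5.73 to 6.55. The fibroblast markers were lower, at 733 to 778 CPM against 836 to 967, and the part of these markers was not tested. The mitochondrial share without copies followed the batch, at 1.11% and 1.03% in P17 and 1.99% and 2.10% in P18.

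The symbol pattern misses some subunits and their neighbours, and 5 of a list of 8 could be tested. Cox7a2l, which joins complexes III and IV into supercomplexes, had 246, 269, 255 and 256 CPM in untreated controls, 178, 172, 174 and 185 CPM with PDGF-BB (log2 -0.53, adjusted p = 1.14e-05) and 357, 371, 347 and 289 CPM after long knockdown (log2 0.41, adjusted p = 0.000459). Neither treated group overlapped the controls. Cyc1, the cytochrome c1 of complex III, rose by 0.42 on the log2 scale with PDGF-BB (adjusted p = 5.96e-05), and Cycs, the electron carrier cytochrome c, by 1.05 (adjusted p = 1.64e-05). Cox4i1, the ubiquitous subunit 4 of complex IV, had a log2 fold change of -0.07 with PDGF-BB (adjusted p = 0.45) and rose by 0.32 after long knockdown under angiotensin II (adjusted p = 0.00191). Ndufab1, the acyl carrier protein of complex I, fell by 0.35 there (adjusted p = 0.0386). Cox4i2, the hypoxia form, stayed at or below 0.346 CPM in all libraries.

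Other lists of the mitochondrion under PDGF-BB are read against the 23.6% of all genes called higher and 20.0% called lower. Of 78 mitochondrial ribosome genes 37 rose (47.4%) and 3 fell (median log2 0.23), with Mrps6 at 0.81 and Mrpl12 at 0.76. Of 19 genes of the tricarboxylic acid cycle and pyruvate dehydrogenase 13 rose (68.4%) and none fell (median 0.25), led by Idh3a, a subunit of isocitrate dehydrogenase, at 0.90 (adjusted p = 5.80e-07). Of 14 carriers and porins 7 rose (50.0%) and 1 fell, with Slc25a5, an ADP and ATP exchanger, at 43.7, 44.0, 43.9 and 64.9 CPM in controls and 151, 149, 158 and 217 CPM with PDGF-BB (log2 1.78, adjusted p = 3.68e-06). Of 51 assembly factors 19 rose (37.3%) and 6 fell, with Cmc2 highest at 1.32. Of 31 genes of mitochondrial DNA maintenance and transcription 6 rose (19.4%) and 1 fell, with a median of 0.05, so that the share that rose was below that of all genes (8 rose, 25.8%, and 7 fell with the replicate block, against 28.3% and 26.2% of all genes). Of 18 regulators of mitochondrial biogenesis 6 rose (33.3%) and 3 fell; Myc rose by 0.64 and Pprc1 by 0.48, and Sirt1 fell by 0.30. With the replicate block, where 28.3% of all genes were called higher and 26.2% lower, the other lists had 43 higher and 3 lower for the ribosome, 14 and 1 for the cycle, 8 and 1 for carriers, 19 and 6 for assembly factors and 8 and 3 for regulators.

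After long knockdown 12.8% of all genes were called lower in untreated cells and 13.3% with angiotensin II (20.6% and 20.9% with the replicate block). The mitochondrial ribosome had 1 gene higher and 11 lower in untreated cells and 5 higher and 12 lower with angiotensin II (2 and 22, then 6 and 25, with the replicate block). Its share called lower, 14.1% and 15.4%, was near that of all genes without the block, and with it was 28.2% and 32.1%. Mrps15 fell by 0.67 and 0.71. The cycle and pyruvate dehydrogenase list had 7 lower (36.8%) and 0 higher, then 7 lower and 1 higher (11 and 1, then 10 and 1, with the block). Sucla2, the ATP-forming subunit of succinyl-CoA ligase, had 103, 93.7, 93.5 and 111 CPM in untreated controls and 41.8, 41.6, 51.3 and 44.3 CPM after knockdown (log2 -1.16, adjusted p = 9.88e-09). Slc25a10, the dicarboxylate carrier, fell by 0.95 and 1.00, and Nubpl, which inserts iron-sulfur clusters into complex I, by 0.90 and 0.77. Regulators of biogenesis had 7 higher (38.9%) and 3 lower, then 6 higher (33.3%) and 3 lower. Of all genes, 12.3% and 13.4% were called higher. With the block the regulators had 8 and 3, then 7 and 3, against 20.0% and 20.4% of all genes higher. Gabpa, the DNA-binding subunit of the factor also called NRF2, fell by 0.49 and 0.56, and Myc by 0.63 and 0.78. The largest called rises at a mean of at least 5 CPM were Sirt1 (0.41) and Ppard (0.35) in untreated cells. With angiotensin II they were Gabpb1 (0.40) and Ppard (0.34). Assembly factors had 2 higher and 2 lower, then 3 and 3 (3 and 4, then 4 and 4, with the block). Carriers and porins had 1 higher and 5 lower (35.7%), then 1 and 4 (28.6%), which became 1 and 9, then 1 and 7, with the block. Mitochondrial DNA maintenance had 1 higher and 3 lower, then 2 and 5 (4 and 6, then 6 and 5, with the block).

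In run 2 no gene of these lists was called in either comparison without the replicate block. With it, 10 mitochondrial ribosome genes (12.8%) and 7 of 50 assembly factors (14.0%) were called higher after overexpression and none lower, against 9.4% of all genes higher. The cycle list had 2 higher and 1 lower there, carriers 2 and 0, regulators 2 and 1, and DNA maintenance 1 and 1. In the libraries labelled total knockdown 3 cycle genes (15.8%) and 2 carriers (14.3%) were called lower with the block, against 5.63% of all genes. The cycle list had 1 higher there, DNA maintenance 1 higher and 1 lower, and the ribosome and the regulators 1 lower each.

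Promoters of the nuclear members were read from RefSeq (GRCm38.p6) as the 250 bases before the gene's start, and 65 members had one. The NRF1 word (GCGCA and GCGC with any 1 base between them) stood in 20.0% of them (13) against 4.23% of 27025 promoters, and the ETS word CCGGAAG in 18.5% (12) against 7.83%, both strands searched; none of the words searched contains another. The YY1 word AAGATGGC stood in 1.54% against 1.83%, the E-box CACGTG in 7.69% against 6.86% and the GC box GGGCGG in 33.8% against 35.4%. Of 25 members with a promoter that rose under PDGF-BB, 4 held the NRF1 word and 7 the ETS word, and of 35 that were not called, 9 and 4. A word is a match of letters and not a binding site. Of 8 members that the comparisons turned on, 5 held neither word (Atp5g1, Ndufs8, Atp5g3, Cox5a and Ndufa6). The 3 with a word and 3 of those without are shown, 5′ to 3′ on the gene's strand, with NRF1 and ETS words in capitals:
Cox6a1, chr5:115348959-115349208, minus strand: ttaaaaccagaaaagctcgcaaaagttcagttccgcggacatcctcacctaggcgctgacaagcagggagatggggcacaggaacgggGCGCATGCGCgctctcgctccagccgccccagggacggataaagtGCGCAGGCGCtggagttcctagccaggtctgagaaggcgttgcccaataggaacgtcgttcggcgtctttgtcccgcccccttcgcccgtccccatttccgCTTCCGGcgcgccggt
Atp5g2, chr15:102671048-102671297, minus strand: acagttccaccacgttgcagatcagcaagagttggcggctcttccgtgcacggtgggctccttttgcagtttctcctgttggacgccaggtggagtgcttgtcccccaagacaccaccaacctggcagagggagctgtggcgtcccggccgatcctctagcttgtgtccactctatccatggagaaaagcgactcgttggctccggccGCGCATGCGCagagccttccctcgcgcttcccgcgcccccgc
Uqcrh, chr4:116075071-116075320, minus strand: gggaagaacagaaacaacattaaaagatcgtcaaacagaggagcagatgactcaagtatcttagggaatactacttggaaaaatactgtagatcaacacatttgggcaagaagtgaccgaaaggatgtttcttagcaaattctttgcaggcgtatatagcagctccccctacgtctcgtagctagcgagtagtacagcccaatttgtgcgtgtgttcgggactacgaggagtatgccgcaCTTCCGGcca
Ndufa6, chr15:82354292-82354541, minus strand: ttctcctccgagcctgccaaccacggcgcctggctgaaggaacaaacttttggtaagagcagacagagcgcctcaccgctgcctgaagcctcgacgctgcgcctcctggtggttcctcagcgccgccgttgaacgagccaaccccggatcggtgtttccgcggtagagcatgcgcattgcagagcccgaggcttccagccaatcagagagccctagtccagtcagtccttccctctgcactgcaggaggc
Atp5g1, chr11:96075632-96075881, minus strand: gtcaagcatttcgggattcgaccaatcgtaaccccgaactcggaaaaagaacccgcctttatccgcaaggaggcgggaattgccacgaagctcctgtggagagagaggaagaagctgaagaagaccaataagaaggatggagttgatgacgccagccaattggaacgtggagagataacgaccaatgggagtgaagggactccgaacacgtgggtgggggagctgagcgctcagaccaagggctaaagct
Cox5a, chr9:57520982-57521231, plus strand: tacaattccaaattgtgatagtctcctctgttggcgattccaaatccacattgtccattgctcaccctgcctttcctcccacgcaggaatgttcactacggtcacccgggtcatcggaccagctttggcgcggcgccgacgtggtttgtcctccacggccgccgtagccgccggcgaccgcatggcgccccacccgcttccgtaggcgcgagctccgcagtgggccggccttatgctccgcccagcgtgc
Cox6a1, which rose under PDGF-BB, held 2 NRF1 words and 1 ETS word. Atp5g2, higher after long knockdown, held 1 NRF1 word. Uqcrh, lower under PDGF-BB and higher after knockdown, held 1 ETS word close to its start, and Ndufa6, with the same directions, held neither word. Atp5g1, with the largest rise under PDGF-BB, and Cox5a, lower after knockdown in both media, also held neither.

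Across the 20 libraries of run 3, most nuclear members followed their common mean. The Pearson r of each member with the mean log2 CPM of the other tested nuclear members had a median of 0.836. Of the 75 members, 69 were above 0 and 42 at 0.8 or more, against a median of -0.06 over all genes. Each member was left out of its own mean, but the libraries share groups and batches, so these values only describe. The lowest were Atp5s (-0.84), a coupling factor, Uqcrh (-0.75) and Ndufa6 (-0.74). The 10 genes most like the mean were the members Uqcrq (0.967) and Ndufa4 (0.959) and, outside the members, Nedd8 (0.966), Cfl1, Ube2l3, Edf1, Psmc3, Emp3, Sra1 and Psmc5 (0.954).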

How the data were processed

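Values are expected counts per gene (RSEM), which the authors deposited as 1 merged table of 30 libraries; per the submitters' processing notes the tools were STAR 2.7.11b and RSEM 1.3.1, with the builds GRCm39 and mm10 named without a role. Annotation, strandedness and filters are not given in the sources used here. RSEM divides reads that fit several genes between them, which bears on the mitochondrial genes and their copies. Reads were 75 bases, in pairs. Symbols came from GENCODE M21 by identifier (51486 of 78334, holding 98.7% of counts), so older names such as Atp5b are used. Groups follow the library names, since several titles give other CASC numbers. CASC15 was read as 2610307P16Rik, which no table used here pairs with it.

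The counts were rounded and tested per run with edgeR 4.0.16 (quasi-likelihood, TMM, filterByExpr with minimum counts 10 and 15, all groups of the run, Benjamini-Hochberg threshold 0.05) in R 4.3.3 with limma 3.58.1, beside DESeq2 1.42.0. Fold changes are log2, with SE from the F statistic. The steps were tested on simulated data. Alternatives were DESeq2, its RLE size factors in edgeR, scaling without mitochondrial genes, no filter, a mean of at least 1 CPM as filter, only the groups compared, the batch as replicate block and each library left out; adding the copies (at least 100 shared 75-base stretches) and leaving out P19 were chosen after seeing the data. The members and lists were chosen with earlier results of these data known. Members named were the 6 largest called changes in each direction at a mean of at least 5 CPM plus fixed isoform sets, and 2 genes per direction for lists; others are named beside counts. Replicate numbers mark the batches given in the labels: libraries of the same batch deviated together (mean r = 0.230 over 13 pairs in run 2 and 0.197 over 40 in run 3, others -0.12 and -0.06), so blocked values stand beside results they change.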

Additional observations from a re-analysis of the deposited data

Results flagged for a closer look

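Each group of 4 libraries was checked for 1 library apart from the other 3, over the mitochondrial share and the named members. Of 173 such groups 13 had one, where chance gives about 1 in 20, and 9 of the 13 were in batch P19.

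The mitochondrially encoded share of counts was lowest in P19 in all 5 run 3 groups and stood apart in 3 of them, at 2.30% in angiotensin II controls (others 2.89% to 2.99%), 2.57% in untreated controls (2.88% to 2.92%) and 2.50% after long knockdown (3.09% to 3.17%). In the same batch mt-Cytb had 2616 CPM in angiotensin II controls (others 3137 to 3238) and mt-Co1 12812 CPM in untreated controls (14776 to 15037). Nuclear members of P19 stood high: Atp5b had 751 CPM after long knockdown (others 594 to 606) and 761 CPM with angiotensin II added (598 to 608), Ndufb8 had 48.4 CPM in the latter group (44.3 to 44.8), and Ndufs8 had 46.5 CPM with PDGF-BB (37.4 to 38.7).

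In other batches, untreated controls had a low mt-Nd1 (2098 CPM, others 2157 to 2167) and a low Ndufc2 (26.6 CPM, others 32.4 to 32.8) in P17 and a low Atp5g1 (38.4 CPM, others 48.3 to 49.8) in P16. Ndufa6 was low in P18 of the angiotensin II controls (49.1 CPM, others 54.8 to 55.9).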

How the results depend on the processing

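No called member named in the text changed sign under an alternative. The replicate block gave 53 called members under PDGF-BB (33 without it), 28 after long knockdown in untreated cells (7), 22 with angiotensin II (12), 2 after overexpression (0) and 3 in the libraries labelled total knockdown (0). Without batch P19, 24 were called after long knockdown in untreated cells and 22 with angiotensin II. Under PDGF-BB that setting called 43 members higher and 4 lower, against 48.9% of all genes in either direction. Without a filter the libraries labelled total knockdown had 1 called member and overexpression 3, and with only the groups compared the libraries labelled total knockdown had 1. The mitochondrially encoded median after long knockdown in untreated cells was 0.025 with the copies added (0.15 without). Leaving out 1 library at a time gave 19 to 49 called under PDGF-BB (19 without its P19 library), 5 to 18 after long knockdown in untreated cells (18 without its P19 library) and 5 to 14 with angiotensin II, where it was 5 or 6 without the P19 control or the knockdown libraries of P16, P17 or P18. The nuclear median under PDGF-BB was then 0.13 to 0.31 (0.31 without the P19 control), and in the libraries labelled total knockdown the nuclear median was -0.081 to 0.15 and the mitochondrially encoded median -0.58 to 0.50, where 1 library was left in a group and was assumed to vary like the other groups. The cause of these shifts was not tested. Of 137 alternatives for each kind of value, 121 counts were within 1.5 times the reported one, and 135 nuclear and 135 mitochondrially encoded medians moved by less than the SD between libraries of a group. Of these 274 medians 25 changed sign, 5 in run 2 and the others for angiotensin II or the interaction, and none for PDGF-BB or long knockdown. No called member named in the text lost its call under the block. Low counts limited Cox6b2 and the 7 members not tested, and 2 libraries a group limited the libraries labelled total knockdown.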
